A study of Mus musculus with 6 samples.

Results

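The protocadherin genes of cultured mouse cerebellar granule neurons were taken from an RNA-seq count table of 23366 genes as all rows whose symbol is Pcdh followed by a letter or a digit. The rule found 71 genes. Of these, 59 belong to the clustered protocadherins (15 alpha, 22 beta and 22 gamma) and 12 are non-clustered. Cells came from pooled cerebella of C57BL/6 litters at postnatal day 7, were enriched on a Percoll step gradient, and were infected on day 1 in vitro with lentivirus. Controls carried the empty pLKO.1 vector (n = 3) and knockdowns carried pLKO.1 with 1 short hairpin RNA against Kdm6b (n = 3), a demethylase of lysine 27 on histone H3. Both groups shared strain, age and infection, and the empty vector expresses no hairpin, so what is due to lower Kdm6b and what is due to having any hairpin cannot be told apart. The labels also state that certain cultures received BDNF without saying which, so whether any of these libraries did is not known. Nothing in the labels states that the replicates are independent cultures, and a p-value therefore reflects only how much these 6 libraries vary, which may be technical variation.

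Protocadherins are cadherin-repeat proteins of the cell surface. The clustered members lie in 3 neighbouring arrays. In the alpha and gamma arrays each variable exon has its own promoter and is spliced to constant exons that all members of the array share, whereas each beta gene is a single coding exon. A neuron expresses a small set of the alternate members, chosen through promoter methylation and looping by CTCF and cohesin, while the C-type members Pcdhac1, Pcdhac2, Pcdhgc3, Pcdhgc4 and Pcdhgc5 follow their own regulation. Homophilic binding of the clustered proteins lets the branches of 1 neuron recognise each other. The non-clustered genes are scattered over the genome, each with its own promoter, and fall into the delta-1 group (Pcdh1, Pcdh7, Pcdh9, Pcdh11x), the delta-2 group (Pcdh8, Pcdh10, Pcdh17, Pcdh18, Pcdh19) and more distant relatives (Pcdh12, Pcdh15, Pcdh20). They are known for regional expression in the brain and for roles in cell sorting, axon growth and synapses.

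Library sizes were 50326298 to 88214069 gene counts, and protocadherins took 0.114% to 0.122% of them. Kdm6b itself was at 257, 146 and 170 CPM (read counts scaled to a common TMM library size) in control replicates 1 to 3 and at 88.8, 63.3 and 79.8 CPM in knockdown replicates 1 to 3, with no overlap of the groups. Its log2 fold change was −1.28 (SE 0.11, edgeR adjusted p = 0.0282) when the replicate number was fitted as a block, and −1.31 (SE 0.25, edgeR adjusted p = 0.216) without the block. Libraries of equal replicate number varied together around the mean of their group, so values from the fit with the block are given below, with the adjusted p without it for each gene that the block calls. All 8 granule neuron markers were detected in every library, summing to 2831 to 4219 CPM in control libraries and 2844 to 4031 CPM in knockdown libraries, and 0 of them were called. Other cell types were present too. The 10 pericyte and fibroblast markers summed to 13257, 23200 and 26434 CPM in controls 1 to 3 and to 4431, 7026 and 12046 CPM in knockdown libraries 1 to 3. Of the 10, 6 were called lower with the block, where 5.4% of all genes tested were called lower.

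Of the 71 protocadherins, 69 had enough counts to be tested. Pcdha4-g had 0 counts in every library, and Pcdhb1 had at most 2. The edgeR quasi-likelihood fit without the block called 0 of the 69, where it called 0.00636% of all 15731 genes tested. At an unadjusted p under 0.05 that fit picked 6 of the 69 protocadherins, 3 higher and 3 lower, where it picked 4.75% of all genes as higher and 5.8% as lower, so the members' share was near the background. DESeq2 without the block called 1, Pcdh19, and limma-voom called 0. With the block, edgeR called 4 protocadherins lower, where 5.4% of all genes were called lower, and 0 higher, where 2.58% of all genes were called higher. The 4 were the non-clustered Pcdh19, Pcdh18 and Pcdh11x and the clustered Pcdhgc5. Leaving out a replicate pair leaves 4 libraries, and the fit with the block then called none of the 4 without pair 1 (where it called 0 genes of all those tested), Pcdh19 alone without pair 2, and Pcdh18, Pcdh19 and Pcdhgc5 without pair 3. When libraries were scaled by their totals alone, Pcdh19 was the only one of the 4 still called with the block.

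Fold changes were spread more widely among the non-clustered than among the clustered genes. Among the 12 non-clustered genes the median absolute log2 fold change was 0.61, and 5 of 12 (41.7%) stayed within 1.5-fold. Among the 57 clustered genes tested it was 0.13, and 53 (93.0%) stayed within 1.5-fold. Over all genes tested the same values were 0.24 and 81.7%. Signed medians were closer, at 0.15 for the non-clustered genes, 0.05 for the clustered genes and 0.02 for all genes. The sign of the non-clustered median was not stable: in fits without the block it was −0.32 when only genes averaging at least 5 CPM were kept, −0.17 without knockdown replicate 1 and −0.055 without control replicate 2. The groups did not overlap in 4 non-clustered genes (Pcdh8 and Pcdh17 higher, Pcdh11x and Pcdh19 lower) and in 7 clustered genes (6 higher, 1 lower), where 9.21% of all genes were higher and 7.44% lower without overlap. All 3 replicate pairs had the same sign in 11 of the 12 non-clustered genes (6 higher, 5 lower) and in 27 of the 57 clustered genes (20 higher, 7 lower), where 31.7% of all genes were higher in all pairs and 28.5% lower. These counts describe both sets and were not set against each other in a test.

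**Figure D1:**
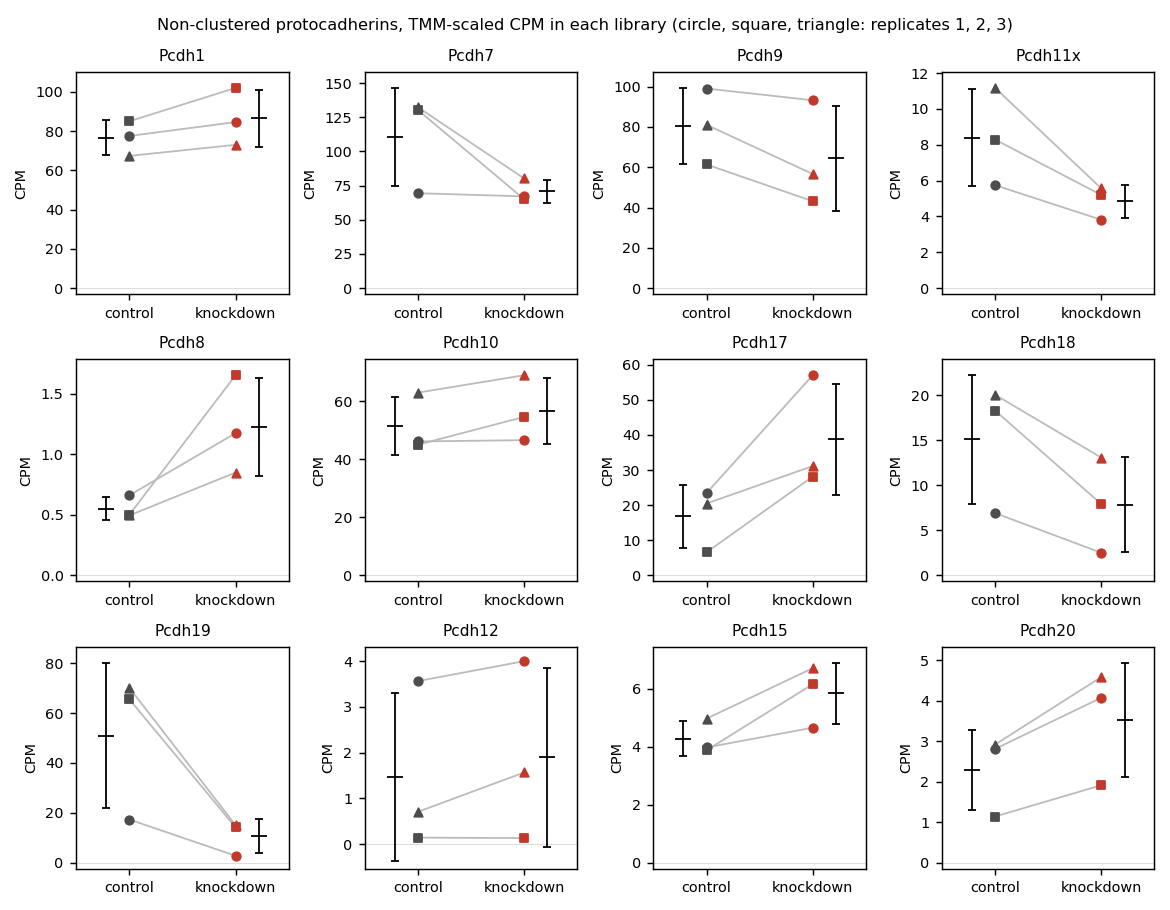
TMM-scaled CPM of the 12 non-clustered protocadherins in control (grey) and knockdown (red) libraries, with circles, squares and triangles for replicates 1, 2 and 3, grey lines joining the same number, and black bars for the mean ± SD of 3 libraries. Pcdh19 and Pcdh11x lie lower and Pcdh17 and Pcdh8 higher in the knockdown without overlap, and replicate 1 is low in both groups for Pcdh18 and Pcdh19.

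Pcdh19, an X-linked delta-2 protocadherin whose loss causes a female-limited epilepsy in humans, had the largest difference of the 69 tested protocadherins. It was at 17.3, 65.5 and 70.1 CPM in control replicates 1 to 3 and at 2.82, 14.2 and 15.1 CPM in knockdown replicates 1 to 3. Every knockdown library was below every control library, although the lowest control and the highest knockdown were close. The mean was 51.0 ± 29.2 CPM (SD, n = 3) for controls and 10.7 ± 6.85 CPM (SD, n = 3) for knockdowns. Within the pairs the log2 differences were −2.43, −2.17 and −2.18, so the control spread came from a replicate that was low in both groups. Pcdh19 fell by 2.34 on the log2 scale with the block (SE 0.12, edgeR adjusted p = 0.0282) and was not called without it (−2.25, SE 0.77, edgeR adjusted p = 0.407). An exact permutation test of 3 against 3 libraries cannot go below 0.1. The annotated gene Gm26851 overlaps Pcdh19 exons on the opposite strand, and a strand setting for HTSeq was not given in the sources used here.

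Sequences of the hairpin strand given in the labels and of its matches in Pcdh19, Pcdh7 and Pcdh9 are shown because the middle 7 bases of that strand, which an earlier analysis of these same libraries had picked out, occur in the longest annotated 3′ UTR of these genes. Capitals mark the shared 7 bases, the sites are on the message strand, and their positions are counted from the first base of the 3′ UTR. The sites were read from the GENCODE M21 transcripts.
Hairpin strand (21 bases): gttcgttACAAGTGagaactc
Pcdh19 (position 1504 of 5128): aacactgcACAAGTGcccctatt
Pcdh19 (position 2189 of 5128): agctttttACAAGTGtcctttaa
Pcdh19 (position 2669 of 5128): atggaagtACAAGTGcatcctag
Pcdh7 (position 1238 of 3879): gccagaacACAAGTGcattgatt
Pcdh9 (position 1148 of 2102): gttgtaacACAAGTGttattaga

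ACAAGTG, searched on the message strand only, was found in the 3′ UTR of 11.4% of the 14017 tested genes that have one annotated. Among the protocadherins it occurred 3 times in Pcdh19, 2 times in Pcdhb19, and 1 time each in Pcdh7, Pcdh9, Pcdhb11 and Pcdhb20. The other 3 called genes, Pcdh18, Pcdh11x and Pcdhgc5, held no match. The alpha genes share 1 longest 3′ UTR of 2401 bases, in the last constant exon, so their matches are not independent of each other, and the gamma genes likewise share a 3′ UTR of 1741 or 1744 bases. Over all genes, 4.57% of the 12421 genes without the word were called lower with the block, against 14% of the 1397 genes with 1 match, 17.0% of the 165 genes with 2 and 50.0% of the 34 genes with 3 or more. The median log2 fold changes of these classes were 0.02, −0.14, −0.22 and −0.59. The word had been picked out in these same libraries, so these classes are no independent check of it. The length of the 3′ UTR, on which the number of matches depends, was not taken into account. In the single-match protocadherins the log2 fold changes were −0.59 in Pcdh7, −0.37 in Pcdh9, 0.31 in Pcdhb11 and 0.37 in Pcdhb20, and Pcdhb19 was at −0.03. GAGAACT, a run of 7 bases near the 3′ end of the same strand, was found in Pcdh15, Pcdh17 and Pcdhb21 and in 12.9% of tested genes with a 3′ UTR. The log2 fold changes were 0.44 in Pcdh15, 1.31 in Pcdh17 and 0.03 in Pcdhb21. GAGAACT was not set against the fold changes of all genes. The part of these matches in the lower Pcdh19 was not tested, and no second hairpin was sequenced here.

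**Figure D2:**
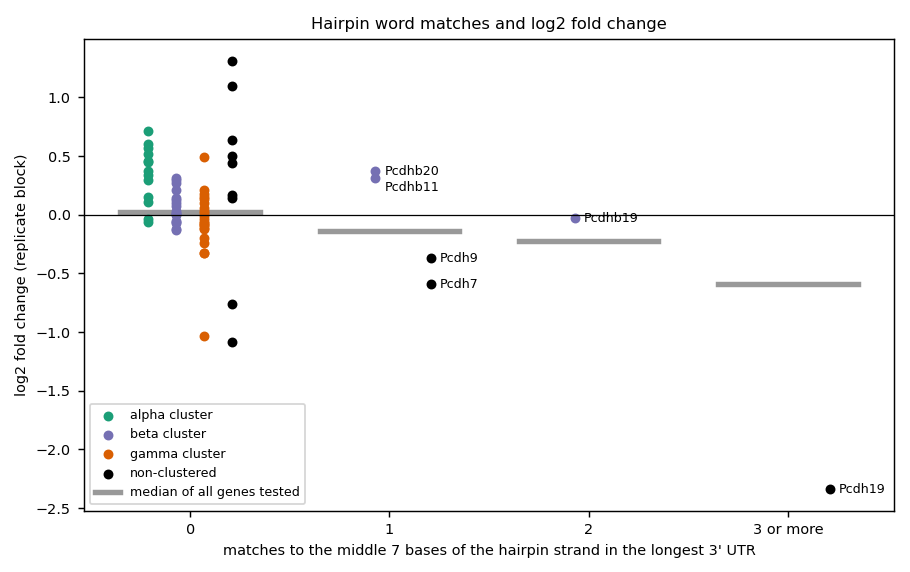
Log2 fold change (knockdown relative to control, fitted with the replicate number as a block) against the number of matches of the hairpin's middle 7 bases in the longest 3′ UTR, with 1 point for each tested protocadherin that has an annotated gene model and grey bars for the median of all tested genes in each class. The medians go from 0.02 at no match to −0.59 at 3 or more, and Pcdh19 lies below all other protocadherins.

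Pcdh18, another delta-2 member, was at 6.93, 18.3 and 20.1 CPM in control libraries and 2.52, 7.93 and 13.1 CPM in knockdown libraries. The groups overlapped because control replicate 1 was below 2 of the knockdown libraries, while each knockdown was below its own control. Pcdh18 fell by 1.09 on the log2 scale with the block (SE 0.19, edgeR adjusted p = 0.0441), with an edgeR adjusted p of 0.632 without it. Pcdh18, Pcdh19, Pcdh11x and Pcdhgc5, the 4 called genes, were each lowest in replicate 1 of either group, as were the summed markers of pericytes and fibroblasts, astrocytes and Bergmann glia, endothelium, GABAergic interneurons and granule precursors. Uncalled protocadherins such as Pcdhga5, Pcdhga10 and Pcdhgc3 were also lowest there, so this order is not particular to the 4 called genes. How many of all genes share it was not counted. The part of any of these cell types in the 4 genes was not tested, and in bulk RNA fewer cells of a type and less RNA per cell cannot be told apart.

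Pcdh17, the delta-2 protocadherin known for corticobasal ganglia axons and synapses, lay in the opposite direction. Controls were at 23.4, 6.58 and 20.5 CPM and knockdowns at 57.0, 28.1 and 31.1 CPM, all above the highest control. The log2 fold change was 1.31 (SE 0.29), which missed the threshold with the block (edgeR adjusted p = 0.0589). It passed when the low-count filter was dropped, when libraries were scaled by their totals alone, when replicate pair 3 was left out and in DESeq2, each with the block. Pcdh8, a short delta-2 member linked to activity-dependent cadherin internalisation, was near the lower end of the family, at 0.66, 0.50 and 0.50 CPM in control libraries and 1.17, 1.65 and 0.85 CPM in knockdown libraries. Its log2 fold change was 1.10 (SE 0.30, edgeR adjusted p = 0.080 with the block) from 25 to 105 counts a library. Pcdh10, which acts in actin remodelling and synapse elimination, was at 46.2, 45.1 and 63.0 CPM in control libraries and 46.7, 54.7 and 69.0 CPM in knockdown libraries, and its difference was small (0.14, SE 0.08).

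The promoters of Pcdh17, Pcdh18 and Pcdh19 are shown because Pcdh18 and Pcdh19 were called lower and Pcdh17 had the highest log2 fold change of the 69 tested protocadherins. Each is the stretch from 250 bases before to 50 bases after the start of the gene in RefSeq, build GRCm38.p6, and runs 5′ to 3′ along the gene's strand. Capitals mark CCAAT or its reverse complement ATTGG, here ATTGG in each case.
Pcdh17 (chr14:84443313-84443612, plus strand): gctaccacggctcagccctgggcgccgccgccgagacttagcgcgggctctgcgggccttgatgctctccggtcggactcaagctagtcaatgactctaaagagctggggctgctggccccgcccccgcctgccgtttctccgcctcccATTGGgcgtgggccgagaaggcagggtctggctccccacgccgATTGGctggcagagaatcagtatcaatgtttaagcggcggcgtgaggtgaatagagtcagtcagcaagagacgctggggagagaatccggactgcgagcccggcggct
Pcdh18 (chr3:49757267-49757566, minus strand): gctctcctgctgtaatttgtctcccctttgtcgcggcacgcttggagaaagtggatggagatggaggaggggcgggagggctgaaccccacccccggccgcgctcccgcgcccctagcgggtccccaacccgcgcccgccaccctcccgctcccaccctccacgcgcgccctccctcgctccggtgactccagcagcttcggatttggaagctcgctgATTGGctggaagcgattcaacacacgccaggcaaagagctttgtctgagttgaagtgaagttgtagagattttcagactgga
Pcdh19 (chrX:133688944-133689243, minus strand): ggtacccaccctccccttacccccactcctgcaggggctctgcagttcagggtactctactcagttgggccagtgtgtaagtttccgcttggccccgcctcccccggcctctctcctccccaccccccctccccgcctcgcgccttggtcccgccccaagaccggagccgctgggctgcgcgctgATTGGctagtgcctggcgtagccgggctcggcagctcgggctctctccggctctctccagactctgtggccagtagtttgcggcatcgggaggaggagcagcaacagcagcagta

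Promoters were matched by symbol for 9 of the 12 non-clustered genes and for 0 of the clustered genes. Pcdh11x, also called lower, was not among the 9. CCAAT on either strand was found in 8 of these 9 promoters (88.9%), in 37.9% of all 27025 promoters of the same length and in 38.3% of the 11424 promoters of tested genes. The 3 printed promoters share the longer stretch GATTGGCT, or AGCCAATC on the other strand, which 4.04% of all promoters hold. Of the 9 matched promoters, only these 3 hold it. That stretch was chosen after the sequences were seen. CpG dinucleotides numbered 26 in the Pcdh17 promoter, 23 in that of Pcdh18 and 18 in that of Pcdh19, and the median was 18 over the 9 promoters and 20 over promoters of tested genes. A match of letters is not a binding site, and Pcdh17 lay in the opposite direction to Pcdh18 and Pcdh19.

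In the delta-1 group, whose cytoplasmic tails carry a motif that binds protein phosphatase 1, 3 of 4 genes were lower and the median log2 fold change was −0.48. Pcdh11x, an X-linked gene, was at 5.74, 8.28 and 11.2 CPM in control libraries and 3.81, 5.20 and 5.56 CPM in knockdown libraries, without overlap. It fell by 0.76 on the log2 scale with the block (SE 0.14, edgeR adjusted p = 0.0486), just inside the threshold, and the edgeR adjusted p without the block was 0.464. Pcdh7 was at 69.4, 130 and 132 CPM in control libraries and 67.2, 65.1 and 80.3 CPM in knockdown libraries. Control replicate 1 was close to all 3 knockdowns, and the log2 fold change of −0.59 (SE 0.19) missed the threshold (edgeR adjusted p = 0.111 with the block). Pcdh9, the highest non-clustered gene per length in controls, was at 99.1, 61.4 and 81.1 CPM against 93.3, 43.2 and 56.7 CPM, lower in 3 of 3 pairs (−0.37, SE 0.11, edgeR adjusted p = 0.094 with the block). Pcdh1 went the other way, from 77.5, 85.0 and 67.4 CPM to 84.6, 102 and 73.0 CPM, with a log2 fold change of 0.17 (SE 0.07) that did not pass.

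The 3 more distant relatives were all low and none passed. Pcdh15, a component of hair-cell tip links, was at 3.98, 3.88 and 4.97 CPM in control libraries and 4.66, 6.16 and 6.72 CPM in knockdown libraries (log2 fold change 0.44, SE 0.15). Pcdh20 was at 2.81, 1.14 and 2.92 CPM and at 4.07, 1.91 and 4.58 CPM, higher in 3 of 3 pairs (0.64, SE 0.16, edgeR adjusted p = 0.072 with the block). Pcdh12, known from endothelium, followed the replicate number rather than the group, at 3.57, 0.14 and 0.71 CPM in control libraries and 4.0, 0.13 and 1.57 CPM in knockdown libraries. Replicate 2 held 7 counts of Pcdh12 in either group. The summed endothelial markers had another order, at 71.5, 89.9 and 147 CPM in controls 1 to 3 and 53.7, 60.1 and 160 CPM in knockdowns 1 to 3, lowest in the replicate where Pcdh12 was highest.

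The clustered genes together differed little in summed level. They summed to 816 ± 28.3 CPM (SD, n = 3) for controls and 793 ± 12.2 CPM (SD, n = 3) for knockdowns, while the non-clustered genes summed to 419 ± 59.3 CPM and 353 ± 21.1 CPM. In pairs 1 to 3 the log2 differences were −0.07, 0.04 and −0.09 for the clustered sum. They were 0.06, −0.37 and −0.41 for the non-clustered sum. The groups overlapped in both sums. The ratio of clustered to non-clustered was 1.97 ± 0.29 in controls and 2.25 ± 0.17 in knockdowns, a difference within the spread between libraries. Within the clustered total the arrays lay in different directions. Alpha members were mostly higher, beta members near 0, and the 3 gamma C-type members lower. A median or sum over the members is a description here and was given no p.

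**Figure D3:**
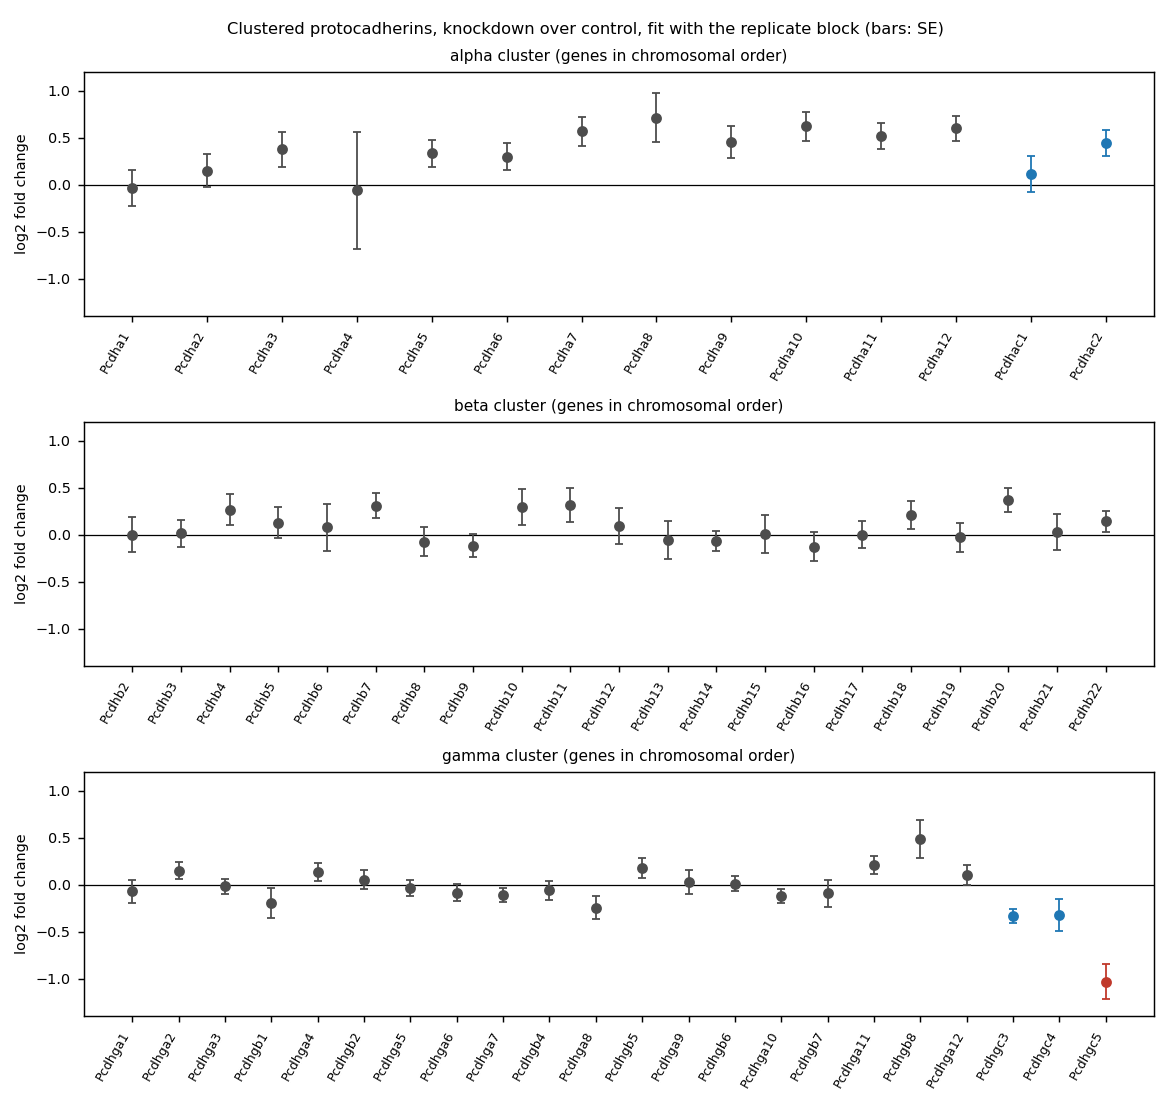
Log2 fold change (knockdown relative to control, fitted with the replicate number as a block, bars are the SE) of the tested clustered protocadherins in chromosomal order, with C-type genes in blue and the 1 called gene, Pcdhgc5, in red. Alpha genes from Pcdha5 to Pcdha12 lie between 0.30 and 0.71, beta genes between −0.13 and 0.37, and the 3 gamma C-type genes lie below 0.

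In the alpha array, 12 of 14 tested genes had a positive log2 fold change, the median was 0.41 and 0 passed with the block. The median was 0.27 without replicate pair 2 with the block, and 0.25, with 10 of 14 positive, without knockdown replicate 1 in the fit without it. All 3 pairs were higher in 10 genes, and the groups did not overlap in Pcdha5, Pcdha10 and Pcdha11. In chromosomal order Pcdha1 was at −0.04 (SE 0.19) and Pcdha2 at 0.15 (SE 0.18), whereas Pcdha7 was at 0.57 (SE 0.16), Pcdha10 at 0.62 (SE 0.16), Pcdha11 at 0.52 (SE 0.14) and Pcdha12 at 0.60 (SE 0.13). Pcdha12, the highest alternate alpha member, was at 9.67, 8.89 and 6.17 CPM in control libraries and 12.9, 16.2 and 8.82 CPM in knockdown libraries (edgeR adjusted p = 0.060 with the block). Pcdha9, the next highest, was at 7.35, 6.02 and 5.66 CPM against 9.45, 10.7 and 6.40 CPM (log2 fold change 0.45, SE 0.17). Pcdha4 had 3 to 24 counts a library, and its value is uncertain because the table also lists Pcdha4-g.

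The alpha array as a whole was at 110, 67.6 and 78.2 CPM in control libraries and 147, 112 and 89.3 CPM in knockdown libraries. Each knockdown library was above its own control, by 0.43, 0.72 and 0.19 on the log2 scale, although the groups overlapped. The C-type gene Pcdhac2, known for its role in the tiling of serotonergic axons, held 41.3 ± 6.80% (SD, n = 3) of alpha counts in controls and 41.3 ± 7.03% (SD, n = 3) in knockdowns. It was at 50.0, 22.6 and 35.0 CPM and at 70.8, 38.0 and 37.4 CPM (log2 fold change 0.45, SE 0.14, edgeR adjusted p = 0.102 with the block). Pcdhac1 was lower in abundance and differed little, at 3.25, 1.82 and 2.34 CPM against 3.68, 2.30 and 2.06 CPM.

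**Figure D4:**
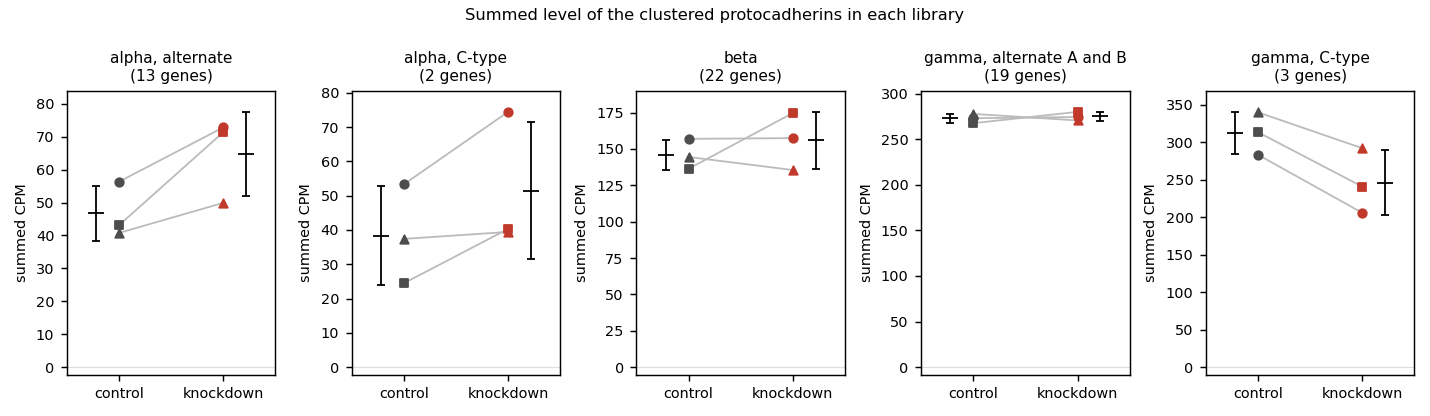
Summed TMM-scaled CPM of the alternate and C-type alpha genes, the beta genes, and the alternate and C-type gamma genes in each library, with symbols for replicates as in the plot of the non-clustered genes and black bars for the mean ± SD. The 19 alternate gamma genes sum to 268 to 280 CPM in all 6 libraries, whereas the 3 gamma C-type genes are lower in the knockdown in all 3 pairs.

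Beta genes hardly differed. All 21 tested genes stayed within 1.5-fold, the median log2 fold change was 0.03, and 15 of 21 were positive. The array summed to 157, 136 and 144 CPM in control libraries and 157, 175 and 136 CPM in knockdown libraries. The log2 ratio of the means was 0.10, and −0.04 without replicate pair 2. Of the 3 most abundant members, Pcdhb17 was at 18.1, 13.6 and 16.1 CPM against 17.2, 17.3 and 13.5 CPM, and Pcdhb16 at 14.3, 13.6 and 14.7 CPM against 13.2, 15.6 and 10.7 CPM. Pcdhb20 was at 14.6, 12.9 and 13.8 CPM in control libraries and 17.8, 20.6 and 15.4 CPM in knockdown libraries, without overlap (log2 fold change 0.37, SE 0.13, edgeR adjusted p = 0.127 with the block). Its share of beta counts was 9.46 ± 0.14% (SD, n = 3) in controls and 11.5 ± 0.26% (SD, n = 3) in knockdowns, and Pcdhb7 and Pcdhb22 were the other beta genes without overlap.

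In the gamma array the C-type members lay below 0 and the alternate members around it. The 19 alternate genes summed to 272.8 ± 5.08 CPM (SD, n = 3) for controls and 275.0 ± 4.74 CPM (SD, n = 3) for knockdowns, all 19 stayed within 1.5-fold and their median log2 fold change was −0.01. Pcdhga11, the highest of them, was at 31.3, 25.9 and 25.0 CPM in control libraries and 34.1, 34.1 and 27.0 CPM in knockdown libraries. Among the alternate genes the groups did not overlap in Pcdhga8 alone, at 12.0, 11.6 and 12.0 CPM against 10.7, 8.41 and 11.2 CPM. The 3 C-type genes summed to 283, 313 and 340 CPM in control libraries and 206, 241 and 292 CPM in knockdown libraries. Each pair was lower, by log2 differences of −0.46, −0.38 and −0.22, and the groups overlapped at 1 library.

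Pcdhgc5 was the only clustered gene called. It was at 10.5, 13.1 and 18.9 CPM in control replicates 1 to 3 and at 4.74, 5.05 and 12.6 CPM in knockdown replicates 1 to 3. Knockdown replicate 3 lay above control replicate 1, so the groups overlapped, and the log2 differences within pairs were −1.07, −1.30 and −0.57. Pcdhgc5 fell by 1.03 on the log2 scale with the block (SE 0.18, edgeR adjusted p = 0.0452), and the edgeR adjusted p without the block was 0.524. Pcdhgc3, which is known to bind Axin1 and to act in dendrite arborisation, was at 231, 268 and 277 CPM in control libraries and 177, 204 and 238 CPM in knockdown libraries. Its log2 fold change of −0.33 (SE 0.08) just missed the threshold with the block (edgeR adjusted p = 0.061). Annotated genes on the opposite strand also overlap Pcdhgc3 (BC037039), Pcdhga8 (Gm37165), Pcdhga11 (Gm26672), Pcdha11 and Pcdha12 (Gm10545), Pcdh8 (Gm9748) and Pcdh10 (1700027H10Rik), and reads of a gene and its partner cannot be told apart where counting ignored strand. Pcdhgc4, the isoform known to be needed for interneuron survival, was at 41.6, 32.6 and 44.4 CPM against 23.8, 31.3 and 41.3 CPM (−0.32, SE 0.17, edgeR adjusted p = 0.241 with the block).

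The shares of members within their array did not overlap between the groups in 4 of 15 alpha genes (Pcdha7 higher, Pcdha1, Pcdha2 and Pcdhac1 lower), in 4 of 22 beta genes (Pcdhb7 and Pcdhb20 higher, Pcdhb9 and Pcdhb16 lower) and in 3 of 22 gamma genes (Pcdhga5, Pcdhgb5 and Pcdhgb8 higher). Pcdhgb5, for example, held 1.61 ± 0.11% (SD, n = 3) of gamma counts in controls and 2.05 ± 0.12% (SD, n = 3) in knockdowns. Shares within an array have no counterpart over all genes, but in CPM 9.21% of all genes were higher and 7.44% lower without overlap. A share also depends on the other members of the array. With the block, Pcdhga5 had a log2 fold change of −0.04, Pcdha2 of 0.15 and Pcdhac1 of 0.11, each opposite in sign to the difference in share. The gamma C-type genes together took 50.9%, 53.9% and 55.0% of gamma counts in controls and 42.9%, 46.2% and 51.9% in knockdowns. Pcdhgc3 alone took 44.1 ± 2.32% (SD, n = 3) and 39.5 ± 2.71% (SD, n = 3), with Wilson 95% intervals, which cover counting error only, of at most ± 0.57 points. The effective number of isoforms, the exponential of the Shannon entropy of the shares, was 10.0 ± 0.53 in controls and 11.3 ± 0.73 in knockdowns for gamma. It was 7.94 ± 0.97 and 7.73 ± 0.92 for alpha, and 17.9 ± 0.24 and 17.9 ± 0.04 for beta. All 22 gamma genes and 21 of the 22 beta genes had at least 10 counts in every library, so the cultures as a whole used nearly every member. Bulk RNA does not show how many a single neuron used.

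**Figure D5:**
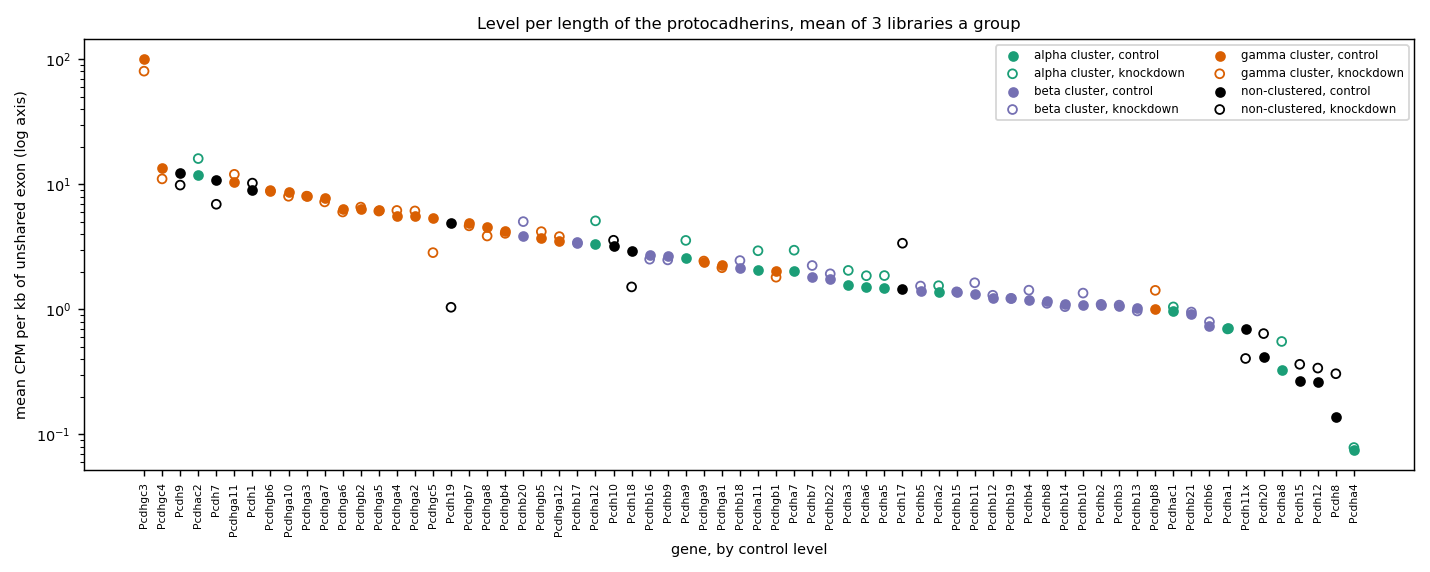
Mean TMM-scaled CPM per kb of exon not shared with another same-strand gene of the count table, on a log axis, for the tested protocadherins with a gene model, ordered by their control level, with filled symbols for control, open symbols for knockdown and colours for the arrays. Pcdhgc3 stands far above the rest at 101 in controls, and the visible gaps between filled and open symbols are mostly in non-clustered and alpha genes.

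Levels can be compared between genes only per length, so CPM was divided by the kb of unshared exon. Unshared here means not overlapped by another gene of the count table on the same strand, and overlaps with opposite-strand genes were not removed. In controls Pcdhgc3 was highest at 101 ± 9.36 CPM per kb (SD, n = 3), followed by Pcdhgc4 at 13.6 ± 2.11, Pcdh9 at 12.3 ± 2.89, Pcdhac2 at 11.9 ± 4.53, Pcdh7 at 10.8 ± 3.50, Pcdhga11 at 10.4 ± 1.30 and Pcdh1 at 9.07 ± 1.05. From Pcdhgc4 to Pcdh1 neighbours in this order did not differ beyond their spread. Pcdh19 ranked 18 of 69 genes in controls, at 4.95 CPM per kb, and was at 1.04 in knockdowns. At the lower end stood the non-clustered Pcdh15 at 0.27, Pcdh12 at 0.26 and Pcdh8 at 0.14. Below them were the clustered Pcdha4 at 0.075 and the untested Pcdhb1 at 0.006. How reads in the constant exons were counted was not given in the sources used here, and its part in the high level of Pcdhgc3 was not tested.

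Genes known to regulate or partner with protocadherins were read from lists drawn up from general knowledge. With the block 5.4% of all genes were called lower and 2.58% higher, and the calls in the first 2 lists, regulators and partners, are close to that background. Of 22 tested regulators of the clustered locus, 2 fell and 0 rose with the block, and their median was 0.04. The cohesin subunit Stag2 was at 134.8 ± 11.7 CPM (SD, n = 3) for controls and 86.0 ± 5.94 CPM (SD, n = 3) for knockdowns (log2 fold change −0.65, SE 0.07, edgeR adjusted p = 0.0282). The cohesin loader Nipbl was at 142 ± 3.40 and 106 ± 8.12 CPM (−0.43, SE 0.08, edgeR adjusted p = 0.0469). Of the 22, 3 hold ACAAGTG in their 3′ UTR, namely both of these and Pds5a, which was not called (−0.21). Over all tested genes with a 3′ UTR, 11.4% hold the word. With the block, 4.57% of genes without it and 14% of genes with 1 match were called lower. The word was picked out in these same libraries, so these matches are no independent check of it. Ctcf differed little, at 108.5 ± 4.65 and 111.9 ± 11.4 CPM.

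Of 26 tested cytoplasmic and membrane partners, 1 rose and 2 fell with the block, and the median was −0.02. Wasf2, a subunit of the WAVE complex that delta protocadherins recruit, was at 64.7 ± 18.9 CPM (SD, n = 3) for controls and 28.2 ± 8.29 CPM (SD, n = 3) for knockdowns (log2 fold change −1.19, SE 0.14, edgeR adjusted p = 0.0282). N-cadherin, Cdh2, which forms a complex with Pcdh19, was at 152 ± 30.3 and 82.8 ± 5.37 CPM (−0.86, SE 0.10, edgeR adjusted p = 0.0282). Of the 26, 5 hold ACAAGTG, namely Wasf2 and Cdh2 and the uncalled Abi1 (−0.04), Abi2 (−0.18) and Cdc42 (−0.02). Of 11 tested Fat, Dachsous, Celsr and Cdhr relatives, 2 fell and 0 rose with the block, and the median was −0.51. These were the receptor and ligand pair Fat4 (−0.51, SE 0.08, edgeR adjusted p = 0.0381) and Dchs1 (−0.66, SE 0.12, edgeR adjusted p = 0.0470). Of the 11, 3 hold ACAAGTG, and only 1 of these 3 was called, so the other called gene holds no match. As for the regulators, the word was picked out in these same libraries, and these counts are no independent check of it. Without the block edgeR called 0 genes of these 3 lists.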

How the data were processed

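The 6 libraries were sequenced as stranded mRNA with single reads of 50 bp, per the labels' protocols. The authors deposited raw counts of reads for each gene, as whole numbers with no normalization. Trimmomatic, TopHat2, HTSeq, edgeR, DESeq2 and build mm9 are named, per the submitters' processing notes. Versions, gene annotation, counting mode, strand setting and the cultures that received BDNF were not given in the sources used here. Reads outside genes (12.1% to 15.0%), ambiguous (0.406% to 0.509%) and not uniquely aligned (16.0% to 19.3%) were left out.

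All genes were fitted together with edgeR 4.0.16 in R 4.3.3 (filterByExpr, minimum count 10 and minimum total 15, TMM, quasi-likelihood F test, Benjamini-Hochberg adjustment over 15731 genes, threshold 0.05), without a block as the planned design. The script was tested on simulated data. Deviations from group means correlated at 0.772, 0.709 and 0.701 between libraries with the same replicate number. The number therefore pairs the libraries in these data, though not in the labels. Correlations between different numbers were −0.532 to −0.135. With each group centred on its own mean, such negative values follow from the positive ones and are no further evidence of pairing. Also tried were the block, DESeq2 1.42.0, limma-voom 3.58.1, RLE or upper-quartile factors, library totals, no filter, a mean of at least 5 CPM, and leaving out each library or pair.

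Named were all non-clustered genes, the 3 highest of each array, the C-type genes, called genes, and called list members. Genes named only for groups without overlap, for their place in the array or as Ctcf, and the beta and uncalled list genes holding the word, were chosen after their values were seen. The partner gene that rose is not reported here. The members and lists were chosen with earlier results of these data known. GENCODE M21 (GRCm38) was matched by symbol, giving exon lengths for 69 of 71 genes. Where a 3′ UTR differs between transcripts the longest was used.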

Additional observations from a re-analysis of the deposited data

How the results depend on the processing

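With the replicate block as the pairing, edgeR called 1256 genes in all, 1 clustered and 3 non-clustered protocadherins, against 1, 0 and 0 without it. With the block, the counts for all genes, clustered and non-clustered were 1342, 1 and 3 with RLE factors, 1350, 1 and 3 with upper-quartile factors, 1276, 0 and 2 (Pcdh19 lower, Pcdh17 higher) with library totals, 1598, 1 and 4 with no filter, 3440, 6 and 6 with DESeq2, and 1394, 1 and 3 with limma-voom. Without the block DESeq2 called 568, 0 and 1, and library totals called 0 genes. Leaving out 1 library called 0 genes. Leaving out replicate pair 1, 2 or 3 with the block called 0, 53 and 1272 genes, 0, 0 and 1 clustered and 0, 1 and 3 non-clustered genes, so all 4 protocadherin calls were lost without pair 1. These fits have fewer samples, and the cause was not tested further. Library totals shift the median of all genes by 0.07 and turn the gamma median from −0.05 to 0.03. The beta median turned to −0.127 without pair 2 with the block and −0.059 without knockdown 2. Summed levels of the alpha and gamma arrays and of the non-clustered genes kept their direction under the scalings and without any library or pair (leaving out pairs was added after seeing the data), and the beta sum turned without pair 2 (−0.04).

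Of 525 values of the 23 named protocadherins under alternatives, set against the fit without the block, which called none, 465 kept direction and side of the threshold, 39 newly passed and 21 turned sign. Of 207 values under alternatives with the block, set against the fit with it, 180 kept both, 11 lost a call, 9 newly passed and 7 turned sign. Leaving out 1 library gave −0.022 to 0.30 for Pcdh10, −0.79 to 2.17 for Pcdh12 (negative without control 2, −0.17, or knockdown 1), −0.18 to 0.36 for Pcdhac1, −0.27 to 0.019 for Pcdhb16 and −0.10 to 0.11 for Pcdhb17. Leaving out a pair with the block turned Pcdhac1 (−0.014), Pcdhb16 (0.032) and Pcdhb17 (−0.185). Pcdhb17, at 0.00, also turned to −0.015 with RLE factors, −0.013 with no filter and −0.016 with DESeq2 and limma-voom, and with the block to −0.016 with RLE factors, −0.013 with no filter, −0.016 with DESeq2 and −0.015 with limma-voom.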

Other observations

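Markers of other cell types also differed between replicates. Oligodendrocyte lineage markers summed to 1152, 158 and 1066 CPM in controls 1 to 3 and to 859, 112 and 771 CPM in knockdowns 1 to 3, with replicate 2 low in both groups. The non-clustered Pcdh9, Pcdh12, Pcdh17 and Pcdh20 were also lowest in replicate 2 of both groups. So were clustered genes such as Pcdhga1 and Pcdhga2, and the order is not particular to any of these genes. Of 9 such markers 2 were called lower with the block by edgeR. That fit called 5.4% of all genes tested lower, a share to be set beside each marker count given here. Microglia markers summed to 43.6 to 78.4 CPM in controls and 8.46 to 44.5 CPM in knockdowns, with C1qb, Cx3cr1 and Aif1 at 0 in at least 1 library, and 1 of 7 was called lower. Lowest in replicate 1 of both groups were the sums of astrocyte and Bergmann glia markers, at 1124, 1422 and 2858 against 626, 804 and 2861 CPM (1 of 8 called lower), of GABAergic interneuron markers, at 168, 431 and 269 against 110, 323 and 253 CPM (1 of 5 called lower), and of granule precursor markers, at 278, 805 and 725 against 226, 685 and 724 CPM (1 of 3 tested called lower). Purkinje cell markers summed to 10.1 to 20.6 and 6.05 to 12.4 CPM (1 of 3 tested called lower). None of 6 endothelial markers was called. The part of any of these cell types in a protocadherin value was not tested.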
